A study of Mus musculus with 24 samples.

Results

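Proteasome subunit genes were followed in livers of C57BL/6 mice with and without the transcription factor FoxO1 in hepatocytes, in the fasted state and shortly after refeeding. The genes were chosen by symbol alone: Psma, Psmb, Psmc or Psmd followed by a number, at a single locus. Of 23746 loci in each file, 39 matched, and 0 of these symbols occurred at more than 1 locus. The acute knockout livers came from FoxO1lox/lox mice injected with AAV8.TBG.Cre, a virus that drives Cre recombinase from the hepatocyte-specific TBG promoter, and their controls from FoxO1lox/lox mice given AAV8.TBG.eGFP, which makes green fluorescent protein. Both were taken on day 21 after injection and are called Cre and GFP livers. The constitutive knockout livers (KO) carried FoxO1-/- through Albumin-cre, which is active in hepatocytes, and their controls (WT) were FoxO1lox/lox mice without Cre, so that no control was a mouse with unmodified Foxo1 alleles. The 4 kinds of liver (Cre, GFP, KO and WT) are called genotypes here, although Cre, GFP and WT mice were all FoxO1lox/lox. Each kind was sampled after a 4 h fast followed by 1 h of refeeding (refed) and after a 4 h fast (fasted). There were 3 libraries in each of the 8 groups. Values are FPKM, fragments per kilobase of transcript scaled to the mapped fragments of a library, so levels of different genes can be set side by side per length. Nothing in the labels ties each library to an animal of its own, and p-values here therefore rest on spread between libraries that may be technical.

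The proteasome is the protease that degrades proteins tagged with ubiquitin. Its 20S core is a barrel of stacked rings, with outer rings of alpha subunits (Psma genes) that gate the entrance and inner rings of beta subunits (Psmb genes), of which Psmb6, Psmb7 and Psmb5 carry the active sites. Interferon can bring in Psmb9, Psmb10 and Psmb8 in their place, which gives the immunoproteasome. The 19S cap holds a ring of ATPases (Psmc genes) that unfold substrates and non-ATPase subunits (Psmd genes) that bind and remove ubiquitin, while Psmd5, Psmd9 and Psmd10 encode chaperones that build the cap and leave it before it is finished. In mammals the transcription factor Nfe2l1 raises the subunit genes together when proteasome activity falls short. FoxO factors have been tied to the cap subunit Psmd11 in Caenorhabditis elegans (rpn-6, with DAF-16) and in human embryonic stem cells (with FOXO4).

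Of the 39 genes, 37 passed the filter for testing, which asked for at least 1 FPKM in at least 3 libraries. The other 2 are subunits known from other organs. Psma8, the testis alpha subunit, lay between 0.150 and 0.922 FPKM in all 24 libraries, and Psmb11, the thymus beta subunit, was listed at 0 in 22 of them and at 0.00274 and 0.00616 FPKM in the remaining 2. The filter used no group labels and removed no subunit of the standard proteasome. The fragments implied by the intervals that the files give beside each value came to about 6280000 to 15700000 per library, with 8 acute libraries at 0.551 to 0.671 times the mean depth and 1 library of each acute group at 1.16 to 1.37 times. Foxo1 itself was at 0.212 to 0.571 FPKM in the 12 knockout libraries and at 4.21 to 6.81 FPKM in the 12 control libraries. Hepatocyte markers dominated the livers, with a median albumin (Alb) level of 40528 FPKM.

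Levels followed the layers of the complex. The 14 expressed genes of the standard 20S core had a median of 107 FPKM over the means of 24 libraries (range 53.4 to 134), against 43.2 FPKM (27.8 to 68.3) for the 17 ATPase and non-ATPase genes of the 19S cap. Of 238 pairs of a core and a cap gene, the core gene was higher in 229, and 12 of the 14 core genes were above every cap gene. Within each library the core median was 2.17 to 2.66 times the cap median, so the difference was seen in all 24. Psmb4, a non-catalytic beta subunit, was the highest of all at 134 FPKM (121 to 155 over libraries), followed by Psmb1 at 125 FPKM (112 to 140). Among the alpha genes Psma7 was highest at 117 FPKM, and Psma5 was the lowest expressed one at 53.4 FPKM. Neighbours in this order, such as Psmb1, Psmb3 and Psma7, overlapped widely between libraries.

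In the cap, the ATPase genes ran from Psmc1 at 66.3 FPKM (58.4 to 74.8) to Psmc2 at 41.1 FPKM (35.4 to 47.8). The non-ATPase genes ran from the ubiquitin receptor Psmd4 at 68.3 FPKM (59.7 to 81.5) to Psmd14, the deubiquitinase of the lid, at 27.8 FPKM (23.0 to 32.5). The assembly chaperones lay well below the subunits they place: Psmd9 ran from 11.8 to 19.1 FPKM over libraries, Psmd5 averaged 14.2 FPKM and Psmd10 5.61 FPKM. The highest Psmd9 library, at 19.1 FPKM, was below the lowest library of Psmd14.

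**Figure D1:**
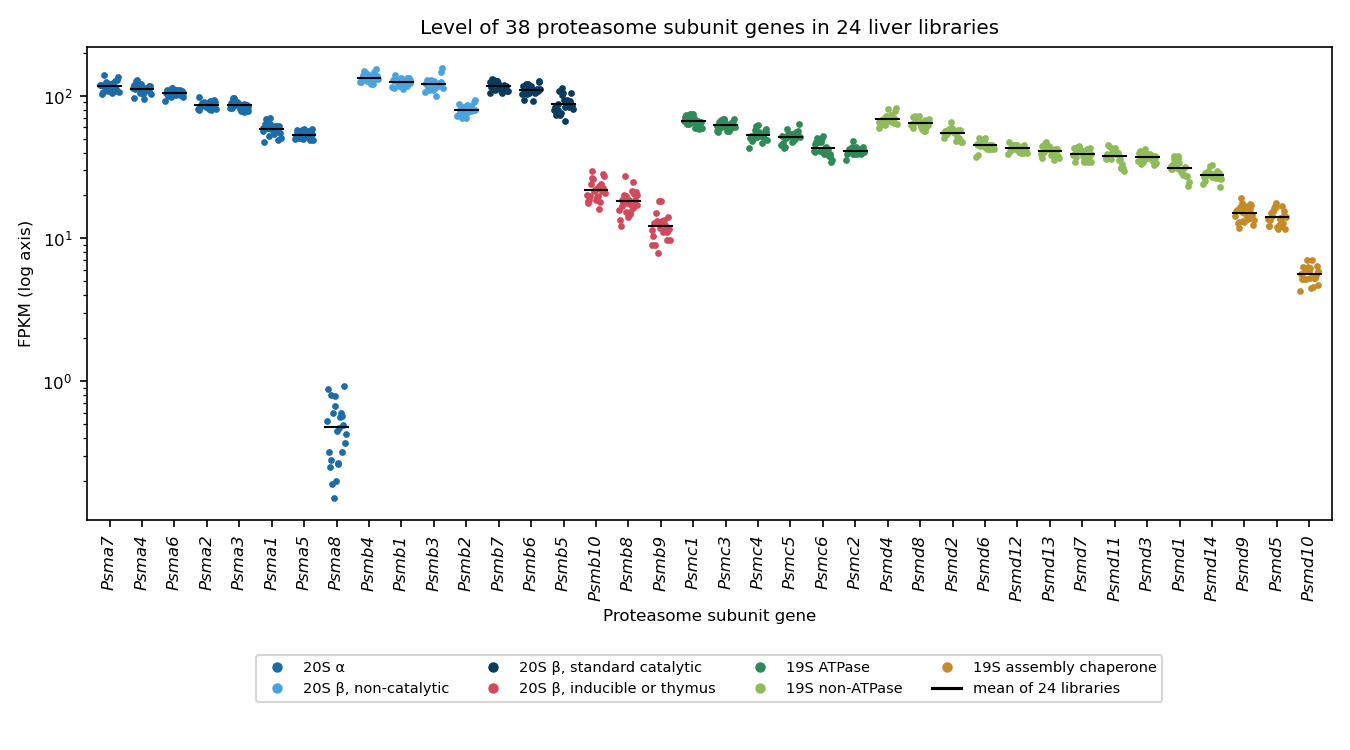
Level of 38 subunit genes in 24 liver libraries (FPKM, log axis; 1 point per library, black line the mean), coloured by role in the complex; Psmb11, at 0 in 22 libraries, is not drawn. Core genes of the standard proteasome lie between 53.4 and 134 FPKM on average, cap genes between 27.8 and 68.3 FPKM, the 3 assembly chaperones below every cap gene, and Psma8 below 1 FPKM.

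The subunits varied little between groups. Over the 8 group means, the highest was at the median 1.19 times the lowest for the 37 tested genes, while this ratio was 1.42 for all 10682 genes kept in the joint fit and 1.32 for the 2475 of them at 20 FPKM or more. The ratio stayed under 1.25 for 26 of the 37 genes (70.3%), against 19.2% of all genes and 32.7% of those at 20 FPKM or more. Psma6 had the smallest ratio, 1.06, and Psmb8 had the largest, 1.55, the single one above 1.5. These shares describe the libraries and were not tested, and a low gene varies more from counting alone.

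Loss of FoxO1 was compared in 4 pairs of groups (Cre against GFP and KO against WT, each refed and fasted). The mean of these 4 effects over all 24 libraries was also taken. Every knockout group carried Cre recombinase and no control did, so effects of FoxO1 loss and of Cre itself cannot be told apart. In the mean of 4, 1 of the 37 genes passed: Psmd9, a chaperone that holds Psmc3 and Psmc6 during cap assembly, was lower in knockout livers, and 0 genes were higher. The limma test called 335 of 10682 genes in this comparison, or 3.14%, with 1.98% of genes lower. The 37 genes had a median log2 change of 0.035, beside 0.0022 for all genes.

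Psmd9 (chr5:123228190-123250125, mm10) was lower in each pair. In the fasted acute model it had 12.8, 11.8 and 13.0 FPKM in Cre livers and 14.5, 15.7 and 15.9 FPKM in GFP livers. Refed acute livers had 15.4, 13.1 and 13.1 FPKM with Cre and 16.5, 19.1 and 17.6 FPKM with GFP. The 3 knockout libraries lay below the 3 control libraries in both states. In the constitutive model, fasted livers had 14.6, 13.8 and 14.1 FPKM in KO and 16.8, 16.4 and 14.7 FPKM in WT, the highest KO library lying just under the lowest WT library. Refed constitutive livers had 14.7, 12.4 and 13.4 FPKM in KO and 17.5, 16.0 and 17.3 FPKM in WT, again without overlap. Groups that did not overlap, lower in knockout in all 4 pairs, were found for 0.271% of the genes tested.

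Taken over both models, Psmd9 ran from 11.8 to 15.4 FPKM in 12 knockout libraries (median 13.3 FPKM) and from 14.5 to 19.1 FPKM in 12 control libraries (median 16.4 FPKM). The log2 change was -0.27 ± 0.040 (SE), with limma's Benjamini-Hochberg adjusted p = 0.000472. The ratio of group means was 0.816 and 0.782 in fasted and refed acute livers and 0.885 and 0.796 in fasted and refed constitutive livers. No single pair passed on its own: limma's adjusted p for Psmd9 was 0.230 and 0.221 in the acute pairs and 0.791 and 0.263 in the constitutive pairs, fasted and refed. Neither the interaction with refeeding nor the difference between models was called for this gene. The difference between the acute and the constitutive effect was -0.11 ± 0.11 in fasted and -0.024 ± 0.11 in refed livers (log2, SE).

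Exons of Psmd9 overlap those of Gm26745, a long noncoding RNA on the opposite strand, in the GENCODE M21 annotation. The libraries were made with a stranded kit, but the sources used here do not give the strand setting of the counting. Whether reads from the pair were kept apart is therefore not known. Of the tested markers of Kupffer, sinusoidal endothelial, stellate cells and neutrophils (11, 8, 7 and 2 genes), 0 were called in the mean of 4. In fasted livers 0 were called in either model, and their medians stood on different sides in the models. Endothelial markers had a median log2 change of -0.54 in acute fasted livers, with 0 of 8 above 0, and 0.35 in constitutive fasted livers, with 8 of 8 above 0. Kupffer markers had -0.13 (3 of 11 above 0) in acute and 0.38 (10 of 11) in constitutive fasted livers, and stellate markers -0.012 (3 of 7) and 0.24 (7 of 7). In refed livers the medians were -0.10 in acute and 0.091 in constitutive livers for endothelial, 0.038 and 0.065 for Kupffer, and 0.19 and 0.11 for stellate markers. The 2 neutrophil markers had -0.44 and -1.11 in fasted and refed acute livers and 0.011 and 0.068 in fasted and refed constitutive livers. In the mean of 4 the erythroid markers Hbb-b1 and Alas2 had log2 changes of 0.56 ± 0.35 and 0.36 ± 0.26 (SE). Neither was called, nor were the 3 cholangiocyte and 2 lymphocyte markers tested. Of 7 tested hepatocyte markers 1 was called, Apoa1, at -0.20 ± 0.047 (limma adjusted p = 0.0229), and summed hepatocyte markers had a median of 61145 FPKM in knockout and 61263 FPKM in control livers. The part of cell makeup in the Psmd9 difference was not tested.

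**Figure D2:**
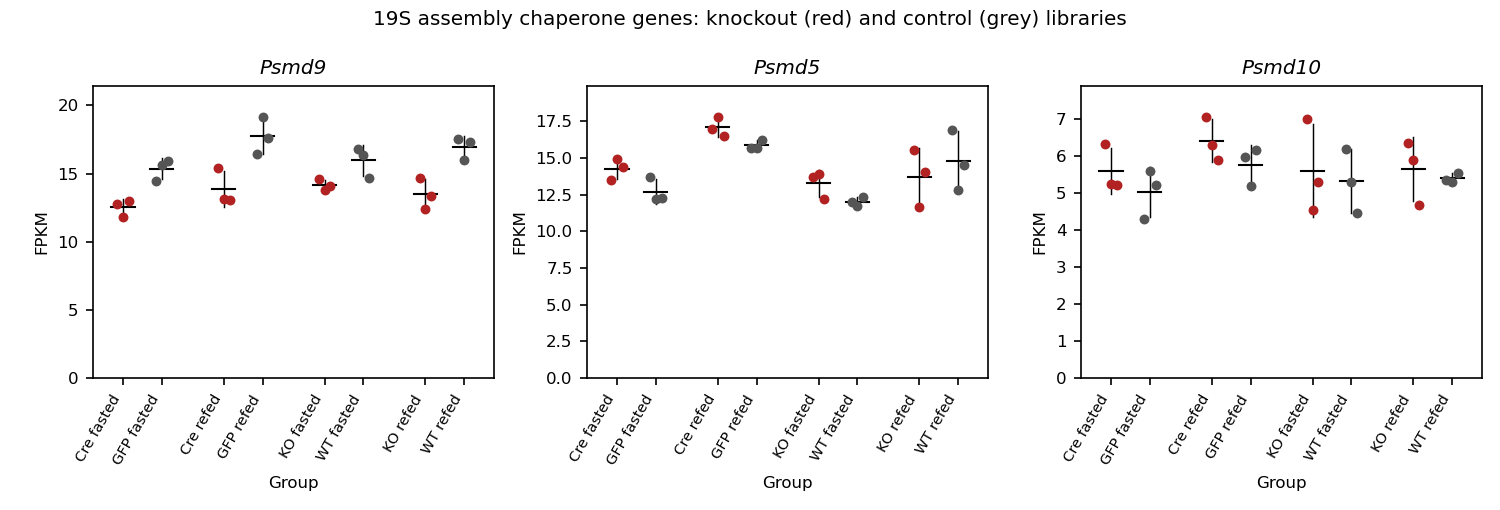
FPKM of the 19S assembly chaperone genes Psmd9, Psmd5 and Psmd10 in every library (points), with the group mean and SD (lines), knockout groups in red left of their controls in grey; n = 3 per group. Psmd9 lies between 11.8 and 15.4 FPKM in knockout and between 14.5 and 19.1 FPKM in control libraries and is separated within each pair, while Psmd5 and Psmd10 were not called with genotype and are higher in knockout by their means in all pairs but refed constitutive Psmd5.

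The promoter of Psmd9 is shown because it is the one subunit gene called with FoxO1 loss. The window, from RefSeq (GRCm38.p6), runs from 250 bases before to 50 bases after the annotated start, at chr5:123227940-123228239 on the plus strand. Capitals mark matches, on either strand, to any of GTAAACA (a core sequence bound by FoxO factors), TGANNNNGC (the core of the antioxidant response element, which Nfe2l1 reads) and an element of GAAA, any 2 bases and GAAA (the core of the interferon-stimulated response element).
Psmd9: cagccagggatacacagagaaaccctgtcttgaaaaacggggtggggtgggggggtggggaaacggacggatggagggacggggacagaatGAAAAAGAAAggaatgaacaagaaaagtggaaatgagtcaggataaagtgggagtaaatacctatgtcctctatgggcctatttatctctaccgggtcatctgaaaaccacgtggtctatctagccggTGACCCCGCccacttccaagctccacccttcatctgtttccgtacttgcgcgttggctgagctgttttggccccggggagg
It holds 1 match to the paired GAAA element starting at position -159 and 1 to TGANNNNGC starting at position -31 from the start site. These do not overlap each other, and no match to GTAAACA was found. Only this exact form of the FoxO core was searched. The window also holds GTAAATA, which differs from it in a single base and is not marked. Windows were found for 32 of the 39 genes. These gave 34 windows, and for 27 of them bases after the start were found in the gene's longest coding transcript. The starts of the remaining windows were not checked in another way. Of the 32 genes, 0 had GTAAACA, which 3.65% of all 32851 windows hold. TGANNNNGC was in 19 of the 32 genes (59.4%), against 41.3% of all windows, and the paired GAAA element in 3 (Psmb3, Psmd4 and Psmd9, 9.38%), against 3.44%. A CCAAT box (CCAAT) was found for 13 of the 32 (40.6%) against 37.4% of all windows, and the ETS core CCGGAAG for 10 (31.2%) against 8.86%. A match describes these letters in this window and is not a shown binding site, and binding outside the window was not looked at.

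The other cap chaperones were not called, with values above 0. Psmd5, which holds Psmc1 and Psmc2 during assembly, had a log2 change of 0.073 ± 0.047 (limma adjusted p = 0.494), and Psmd10, also known as gankyrin, which holds Psmc4 and Psmc5, had 0.091 ± 0.066 with adjusted p = 0.557. Of the assembly factors outside this family, 5 of 6 were tested. Psmg2, a chaperone of the alpha ring, was higher in knockout livers at 0.18 ± 0.047 (limma adjusted p = 0.0426), and the other 4 were not called. Of all genes 1.16% were called higher in this comparison. The related lists of activators and inhibitors, receptors and deubiquitinases, Nfe2l1 activation, ubiquitin and shuttles, and MHC class I processing held 0 called genes. Psmg2 averaged 14.2 ± 0.85 FPKM in Cre and 12.4 ± 0.55 FPKM in GFP fasted livers, and 13.9 ± 0.39 FPKM in KO and 11.2 ± 1.5 FPKM in WT fasted livers (SD, n = 3 each). In refed livers it averaged 13.8 ± 1.3 FPKM in Cre and 12.7 ± 0.75 FPKM in GFP, and 13.0 ± 1.2 FPKM in KO and 11.9 ± 1.1 FPKM in WT, with log2 changes of 0.11 and 0.12 beside 0.18 and 0.30 in the fasted pairs. Its call was lost under median-of-ratios scaling, with adjusted p = 0.0555.

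For the 31 standard core and cap subunits, the mean knockout effect ranged from -0.037 to 0.14 on the log2 scale, and their 95% intervals ran from -0.12 to 0.28. The alpha genes had a median log2 change of 0.055, the non-catalytic beta genes 0.041, the standard catalytic genes 0.080, the ATPases 0.027 and the other cap subunits 0.0070. Psmd11 ran from 29.9 to 45.4 FPKM in 12 knockout libraries (median 39.1 FPKM) and from 31.0 to 43.9 FPKM in 12 control libraries (median 38.1 FPKM), with a log2 change of 0.010 ± 0.044 and a 95% interval of -0.081 to 0.10. The largest value was that of Psmb5, the chymotrypsin-like active subunit, at 0.14 ± 0.067 (limma adjusted p = 0.340). The 3 inducible genes were not called either: Psmb8 had 0.035 ± 0.085, Psmb9 0.095 ± 0.10 and Psmb10 -0.014 ± 0.061.

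Within single pairs, 0 of 37 genes passed for FoxO1 loss, beside 0.297% of all genes in fasted and 0.105% in refed acute livers, and 0.0964% in fasted and 0.0289% in refed constitutive livers. At an unadjusted p under 0.05, 7 and 3 members were found in fasted and refed acute livers and 0 and 2 in fasted and refed constitutive livers, beside 12.3%, 9.09%, 6.56% and 10.8% of all genes. In fasted acute livers 34 of the 37 genes lay above 0 (91.9%), with a median log2 change of 0.096 against -0.0078 for all genes, of which 48.2% lay above 0. Groups did not overlap, with Cre higher, for 8 of the 37 (21.6%), beside 9.15% of all genes. Of 8 sinusoidal endothelial markers, 0 were called in the same comparison and 0 lay above 0. Their summed level had a median of 28.8 FPKM (22.3 to 43.1) in Cre and 63.5 FPKM (34.2 to 67.0) in GFP fasted livers. The 2 tested erythroid markers, also not called, had a median log2 change of 0.93, with 1 of them above 0. Their summed level had a median of 67.4 FPKM (47.2 to 87.3) in Cre and 15.7 FPKM (12.7 to 94.0) in GFP fasted livers. The part of these cells in the pattern was not tested. In the constitutive model 13 of 37 lay above 0 in fasted livers, with a median of -0.0096, against 55.6% and a median of 0.016 for all genes. The difference between the acute and the constitutive effect was called for 0 subunits and 0.0% of all genes in either state. At an unadjusted p under 0.05 it had 4 subunits in fasted and 3 in refed livers, beside 7.85% and 10.9% of all genes. The 3 largest such differences were those of Psmb9 at 0.27 ± 0.29, Psmd14 at 0.24 ± 0.11 and Psmd1 at 0.24 ± 0.11 in fasted livers, and of Psmb10 at -0.46 ± 0.17, Psmd1 at 0.29 ± 0.11 and Psmb5 at 0.28 ± 0.19 in refed livers. Subunits of 1 library move together, so the 37 genes are not independent. The median over subunits, relative to each gene's mean over all libraries, was 0.033, 0.010 and 0.055 in the 3 Cre fasted libraries and -0.11, 0.013 and -0.10 in the 3 GFP fasted libraries (log2). The part of these libraries in the pattern was not tested beyond leaving each out in turn, which gave medians of 0.067 to 0.14.

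Among the catalytic genes, the knockout effects in the 4 pairs ran from 0.036 to 0.33 for Psmb5, from 0.021 to 0.16 for Psmb6 and from -0.055 to 0.14 for Psmb7 (log2). They ran from -0.25 to 0.36 for Psmb8, from -0.12 to 0.24 for Psmb9 and from -0.31 to 0.15 for Psmb10, so each of the inducible genes had both signs.

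In refed acute livers Psmb5 had 101, 113 and 104 FPKM with Cre and 109, 72.9 and 75.2 FPKM with GFP. The groups overlapped through GFP refed library 1, and Psmb5 was not called (0.33 ± 0.14, limma adjusted p = 0.492). Without that library its log2 change was 0.51, with adjusted p = 0.0434. Psmb5 has a processed pseudogene, Gm3375, that matches its transcript at 98.9% over 796 bases, so fragments of the pair could have been split in counting.

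**Figure D3:**
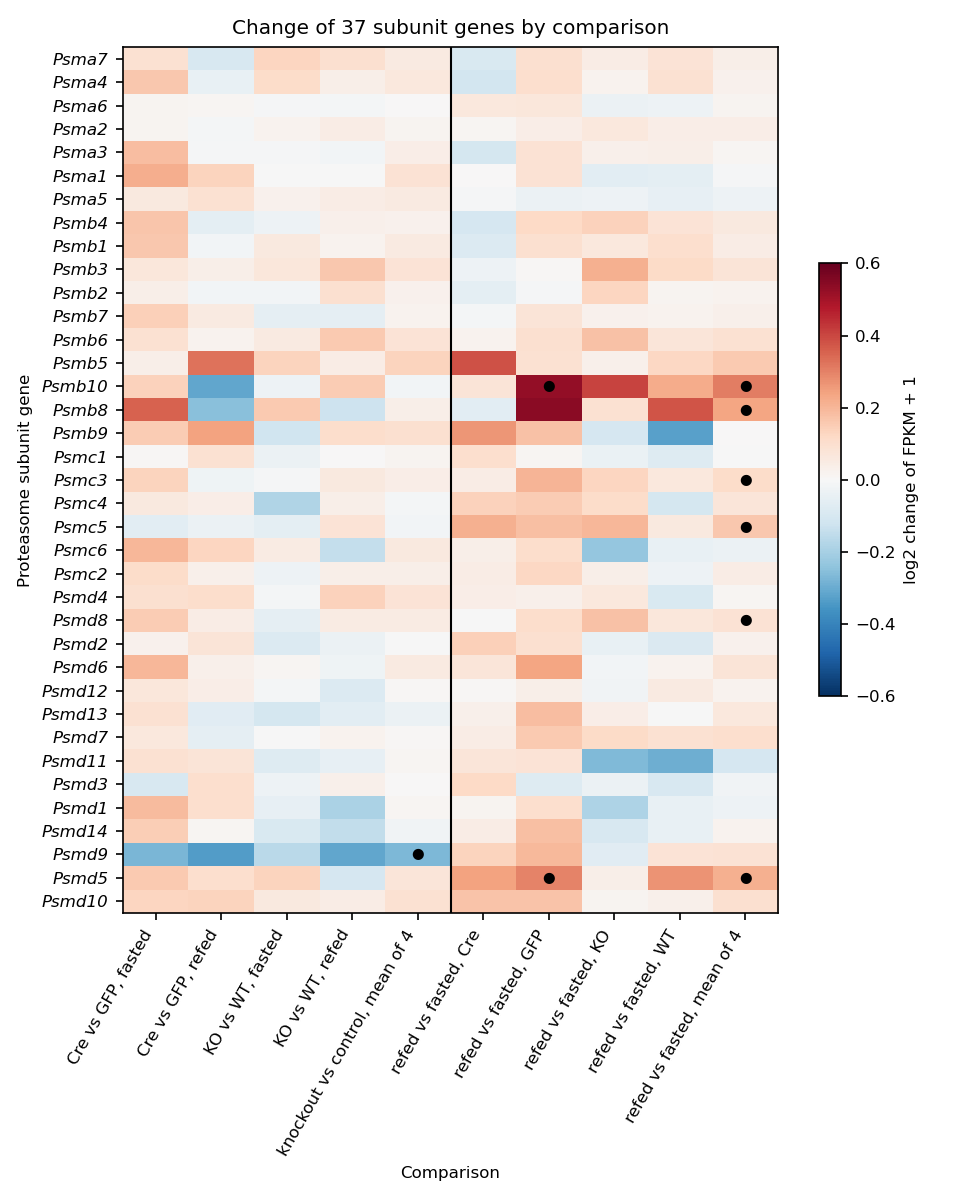
Log2 change of FPKM + 1 for 37 subunit genes (rows, grouped by role) in the 4 knockout comparisons and their mean (left) and the 4 refeeding comparisons and their mean (right); colour gives the change and a black dot a call at limma's adjusted p under 0.05. Psmd9 is the single row that is blue across the knockout columns, and the dots on the right sit on Psmb10, Psmb8, Psmc3, Psmc5, Psmd8 and Psmd5.

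Refeeding for 1 h was compared with the fast in each genotype and as the mean of the 4 effects. In the mean, 6 of 37 genes (16.2%) rose and 0 fell: the inducible catalytic genes Psmb10 and Psmb8, the chaperone Psmd5, the ATPases Psmc5 and Psmc3 and the lid subunit Psmd8. The share was no larger than that of all genes, of which 30.3% were called, 19.9% higher and 10.4% lower. The median log2 change of the 37 genes was 0.040, beside 0.038 for all genes. After median-of-ratios scaling of the libraries the medians were -0.0010 for the subunits and 0.0037 for all genes, calls were 3 higher (Psmb10, Psmc5 and Psmd5) and 1 lower (Psmd11) among subunits, and over all genes the split went to 1575 higher and 1606 lower beside 2128 higher and 1108 lower. Under that scaling 18 subunits lay above 0, beside 30 without it. The 95% intervals of the 31 standard subunits ran from -0.19 to 0.30.

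Psmb10 (chr8:105935728-105938392, mm10), which replaces the trypsin-like subunit Psmb7 in the immunoproteasome, had the largest mean effect. In the acute model it had 26.3, 29.6 and 26.1 FPKM in refed and 20.2, 18.3 and 17.6 FPKM in fasted GFP livers, and 21.4, 21.9 and 22.1 FPKM in refed and 18.4, 19.7 and 24.1 FPKM in fasted Cre livers. Refed GFP livers lay wholly above fasted ones, while the Cre groups overlapped. In the constitutive model it had 28.2, 27.5 and 20.8 FPKM in refed and 16.1, 23.2 and 17.9 FPKM in fasted KO livers, and 24.1, 21.4 and 22.6 FPKM in refed and 18.5, 19.5 and 19.97 FPKM in fasted WT livers. The KO groups overlapped and the WT groups did not. The share of all genes separated in both the GFP and the WT pair was not worked out. Over the 4 genotypes Psmb10 rose by a log2 change of 0.31 ± 0.061 (limma adjusted p = 0.000907), with means higher in 4 of 4 pairs.

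The GFP livers gave the one single pair in which subunits passed, with 2 higher and 0 lower. Psmb10 was 1.46 times the fasted mean there (log2 0.53 ± 0.10, limma adjusted p = 0.0129), and Psmd5 was 1.25 times (0.30 ± 0.072, adjusted p = 0.0343). Of all genes 6.56% were called in this pair, 4.81% higher and 1.75% lower, a split of 503 against 183 that became 262 against 308 under median-of-ratios scaling, where Psmb10 kept its call and Psmd5 did not (adjusted p = 0.112). Over the 8 shallower acute libraries neither was called, with adjusted p = 0.0785 for Psmb10, which held in the 12 other settings of 13, while Psmd5 held in 4 of 13 and was lost without any 1 of 5 libraries of the pair. Groups did not overlap, with refed higher, for 9 of 37 genes (24.3%), beside 19.9% of all genes. The pair shares its GFP fasted libraries with the comparison of Cre and GFP livers above. The Cre pair called 0 subunits among 5.44% of all genes, the KO pair 0 among 5.68% and the WT pair 0 among 0.318%. At an unadjusted p under 0.05 the Cre, KO and WT pairs had 3, 7 and 3 subunits, beside 24%, 25.5% and 15.6% of all genes.

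The refeeding effect on Psmb10 differed between Cre and GFP livers by -0.45 ± 0.14, and that on Psmb8 by -0.60 ± 0.26, but neither interaction passed (limma adjusted p = 0.669 and 0.749), and Psmb5 followed at 0.29 ± 0.19. In the constitutive model the interaction was largest for Psmb8 at -0.28 ± 0.19, Psmd5 at -0.23 ± 0.16 and Psmb9 at 0.23 ± 0.23, each with adjusted p = 0.963. Interactions were called for 0 subunits in either model, beside 0.0287% of all genes in the acute and 0.0% in the constitutive one. At an unadjusted p under 0.05 there were 3 and 0, beside 6.6% and 4.4% of all genes. The refeeding effect of control livers differed most between GFP and WT for Psmb9 at 0.50 ± 0.29, Psmd11 at 0.38 ± 0.12 and Psmb10 at 0.31 ± 0.17, none of them called, beside 0.00936% of all genes. At an unadjusted p under 0.05 this difference had 2 subunits, beside 9.41% of all genes.

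Psmb8 (chr17:34198195-34201454, mm10), which replaces Psmb5, ran from 14.1 to 27.5 FPKM in 12 refed libraries (median 20.03 FPKM) and from 12.1 to 21.4 FPKM in 12 fasted libraries (median 16.6 FPKM). The ranges overlapped widely, and means were higher in 3 of 4 genotypes. The rise of 0.24 ± 0.085 (limma adjusted p = 0.0399) was called in 13 of 30 settings tried, this one included, and in 9 of 24 fits that left out 1 library. Exons of Psmb8 overlap the antisense gene Gm20496, so its reads carry the same doubt about strand as those of Psmd9. Psmb9, which replaces Psmb6, ran from 7.92 to 18.3 FPKM in refed libraries (median 11.9 FPKM) and 8.95 to 18.2 FPKM in fasted libraries (median 12.3 FPKM), with a mean log2 change of 0.0028 ± 0.10 over pairs that lay on both sides of 0. The pairs had 0.27 in Cre, 0.17 in GFP, -0.10 in KO and -0.33 in WT livers, none of them called. Exons of Psmb9 overlap those of Tap1 on the opposite strand, so the same doubt about strand holds for both genes.

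In bulk liver, fewer cells of a type and less RNA per cell cannot be told apart, and immunoproteasome genes are high in blood-derived cells. All 11 tested Kupffer cell markers were above 0 with refeeding in the mean of 4, and 5 of them were called (C1qa, C1qb, Csf1r, Timd4 and Vsig4), as were 4 of 8 sinusoidal endothelial and 4 of 7 stellate cell markers, beside 19.9% of all genes called higher. Summed Kupffer markers ran from 46.7 to 285 FPKM in refed libraries (median 174 FPKM) and from 56.4 to 217 FPKM in fasted libraries (median 89.0 FPKM). In GFP livers they ran from 79.3 to 162 FPKM refed and from 56.4 to 81.0 FPKM fasted, and in Cre livers from 46.7 to 285 FPKM refed and from 56.6 to 87.8 FPKM fasted. Summed endothelial markers had a median of 50.5 FPKM in refed and 42.5 FPKM in fasted libraries, and stellate markers 76.3 FPKM in refed and 54.1 FPKM in fasted libraries. Summed lymphocyte markers were low in both, from 1.53 to 5.72 FPKM in refed and from 1.85 to 6.58 FPKM in fasted libraries, and 8 of the 12 were at 0 in some library. Summed neutrophil markers reached 26.4 FPKM in 1 refed GFP library. The part of these cells in the subunit differences was not tested.

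**Figure D4:**
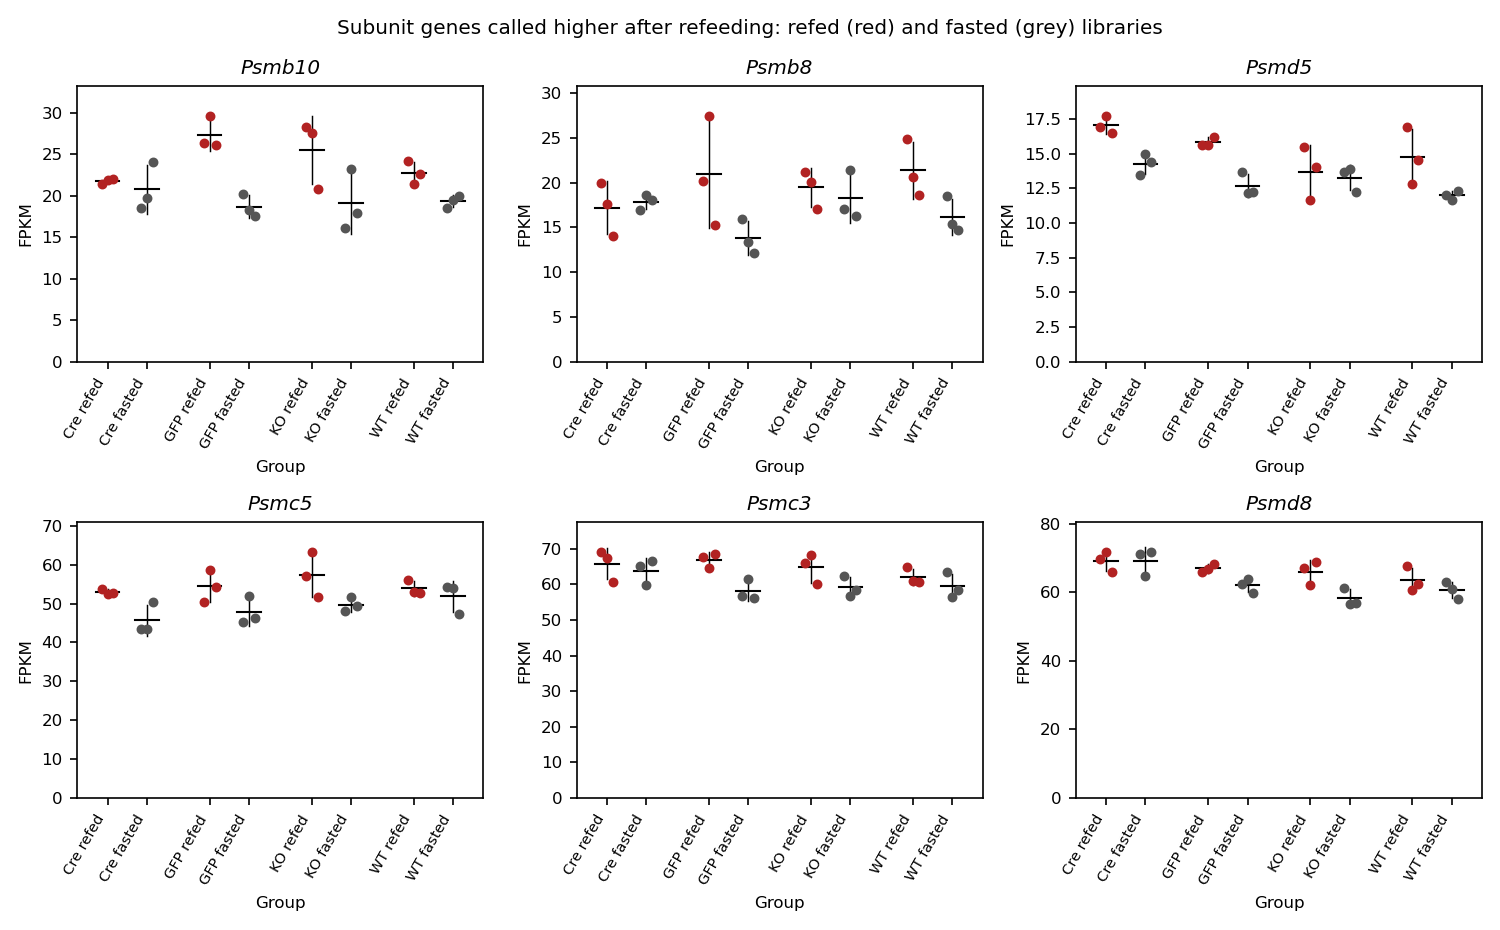
FPKM of the 6 subunit genes called higher with refeeding in the mean of the 4 genotypes, in every library (points) with group mean and SD (lines), refed groups in red left of fasted groups in grey; n = 3 per group. Psmb10 is separated in the GFP and WT pairs, Psmd5 in 3 of the 4 pairs, and the Psmb8 groups overlap in most pairs.

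Psmd5 (chr2:34852089-34870962, mm10) was separated in 3 of 4 pairs. It had 15.7, 15.7 and 16.3 FPKM in refed and 13.7, 12.2 and 12.3 FPKM in fasted GFP livers, and 16.9, 17.8 and 16.5 FPKM in refed and 13.5, 14.96 and 14.4 FPKM in fasted Cre livers. It had 16.9, 12.8 and 14.5 FPKM in refed and 12.02, 11.7 and 12.3 FPKM in fasted WT livers, and 15.5, 11.6 and 14.02 FPKM in refed and 13.7, 13.9 and 12.2 FPKM in fasted KO livers. Only the KO groups overlapped. The mean log2 change was 0.21 ± 0.047 (limma adjusted p = 0.00216). In the GFP pair alone, refed lay above fasted without overlap for 19.9% of all genes. The share of all genes separated in 3 of 4 pairs was not worked out.

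Psmc5, an ATPase of the ring, ran from 50.5 to 63.2 FPKM in refed libraries (median 53.4 FPKM) and from 43.4 to 54.3 FPKM in fasted libraries (median 48.7 FPKM), a log2 change of 0.16 ± 0.042 (adjusted p = 0.00640). Another ATPase of the ring, Psmc3, ran from 60.1 to 69.1 FPKM (median 65.3 FPKM) in refed and from 56.1 to 66.5 FPKM (median 59.1 FPKM) in fasted libraries, at 0.11 ± 0.035 (adjusted p = 0.0241). Both were higher by their means in 4 of 4 genotypes. The lid subunit Psmd8 ran from 60.8 to 71.7 FPKM (median 66.9 FPKM) in refed and from 56.7 to 71.7 FPKM (median 61.9 FPKM) in fasted libraries, at 0.087 ± 0.032 (adjusted p = 0.0428), and was higher in 3 of 4. Psmb10, Psmc5 and Psmd5 were called in all 30 settings tried, Psmc3 in 28 and Psmd8 in 13. Exons of Psmc3 overlap Slc39a13 on the opposite strand.

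Psmd11 was the lowest of the 37 in the mean refeeding effect, at -0.10 ± 0.044 (limma adjusted p = 0.0850), and was called lower only in 4 of 30 settings. In the constitutive model it had 33.5, 31.3 and 29.9 FPKM in refed and 39.5, 39.7 and 35.2 FPKM in fasted KO livers, and 36.0, 31.0 and 31.3 FPKM in refed and 43.0, 39.0 and 38.9 FPKM in fasted WT livers. Refed libraries lay below fasted ones in both genotypes, at -0.27 ± 0.084 (adjusted p = 0.0807) and -0.29 ± 0.084 (adjusted p = 0.134). In acute livers the change was 0.072 ± 0.095 with Cre and 0.082 ± 0.095 with GFP. The share of all genes lower without overlap in both constitutive pairs was not worked out.

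The promoters of the 3 genes called in every setting are shown for comparison with that of Psmd9, from the same RefSeq windows, with capitals marking the same 3 motifs. They lie at chr8:105938343-105938642 on the minus strand (Psmb10), chr2:34870913-34871212 on the minus strand (Psmd5) and chr11:106255935-106256234 on the plus strand (Psmc5), and each is written 5′ to 3′ along its gene.
Psmb10: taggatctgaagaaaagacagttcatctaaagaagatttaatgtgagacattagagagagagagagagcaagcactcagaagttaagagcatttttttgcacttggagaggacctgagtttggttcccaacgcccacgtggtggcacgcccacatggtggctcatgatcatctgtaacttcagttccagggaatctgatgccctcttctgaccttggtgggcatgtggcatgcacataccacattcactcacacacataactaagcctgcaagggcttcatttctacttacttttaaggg
Psmd5: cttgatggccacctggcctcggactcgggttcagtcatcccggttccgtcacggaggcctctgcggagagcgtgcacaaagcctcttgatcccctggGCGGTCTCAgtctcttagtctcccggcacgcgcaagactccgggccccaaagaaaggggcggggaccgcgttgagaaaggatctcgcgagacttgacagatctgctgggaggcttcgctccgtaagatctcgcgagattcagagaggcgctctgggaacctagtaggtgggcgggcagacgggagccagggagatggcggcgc
Psmc5: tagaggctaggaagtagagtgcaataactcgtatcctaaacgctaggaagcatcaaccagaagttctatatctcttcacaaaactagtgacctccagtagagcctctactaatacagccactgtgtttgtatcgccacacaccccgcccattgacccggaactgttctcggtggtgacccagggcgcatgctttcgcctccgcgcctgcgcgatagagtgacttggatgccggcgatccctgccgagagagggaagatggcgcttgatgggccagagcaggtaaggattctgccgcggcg
Psmd5 holds 1 match to TGANNNNGC, on the opposite strand and so read as GCGGTCTCA, starting at position -153. The windows of Psmb10 and Psmc5 hold none of the 3 motifs. Their GC content was 45.7% for Psmb10, 63.7% for Psmd5 and 55% for Psmc5, beside a median of 56% over the subunit windows and 52.7% over all windows.

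Inducible catalytic genes lay well below the standard ones they replace. Over the 24 libraries Psmb8 was at the median 20.3% of Psmb5 (13.5% to 37.7%), Psmb10 18.7% of Psmb7 (13.97% to 27.1%) and Psmb9 11.1% of Psmb6 (6.58% to 17.5%). The ratio of Psmb10 to Psmb7 averaged 22.7% ± 3.8 in refed and 16.4% ± 2.6 in fasted GFP livers, and 23.1% ± 3.2 in refed and 17.7% ± 4.0 in fasted KO livers (SD, n = 3 each). It was 19.8% ± 0.75 in refed and 17.2% ± 1.3 in fasted WT livers, and 17.3% ± 0.57 in refed and 16.4% ± 2.4 in fasted Cre livers. Refed ranges lay above fasted ones in GFP and WT livers. The other ratios did not go one way. The ratio of Psmb8 to Psmb5 averaged 16.3% ± 3.2 in refed and 22.0% ± 0.82 in fasted Cre livers, where refed libraries lay wholly below fasted ones, and 25.6% ± 10.6 in refed and 17.5% ± 2.2 in fasted GFP livers, where the highest library, GFP refed library 2, reached 37.7%. It was 21.6% ± 1.7 in refed and 20.7% ± 2.0 in fasted KO livers, and 24.6% ± 4.3 in refed and 20.2% ± 1.8 in fasted WT livers. The ratio of Psmb9 to Psmb6 averaged 9.80% ± 1.4 in refed and 11.9% ± 0.41 in fasted KO livers, and 10.1% ± 1.0 in refed and 13.6% ± 2.6 in fasted WT livers, with refed libraries below fasted ones in both. It was 12.8% ± 4.1 in refed and 10.5% ± 1.9 in fasted Cre livers, and 11.05% ± 4.1 in refed and 9.87% ± 1.2 in fasted GFP livers, which overlapped. These ratios were not tested. They carry the doubt about strand for Psmb8 and Psmb9, and for Psmb7, whose exons overlap those of Nek6 on the opposite strand. The standard genes Psmb5, Psmb6 and Psmb7 passed in none of the comparisons as fitted here. With refeeding their mean log2 changes were 0.16 ± 0.067, 0.091 ± 0.044 and 0.029 ± 0.037, and over single pairs they ran from 0.031 to 0.38, from 0.023 to 0.17 and from -0.011 to 0.079. For Psmb8 the pairs ran from -0.062 to 0.54, for Psmb9 from -0.33 to 0.27 and for Psmb10 from 0.076 to 0.53.

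**Figure D5:**
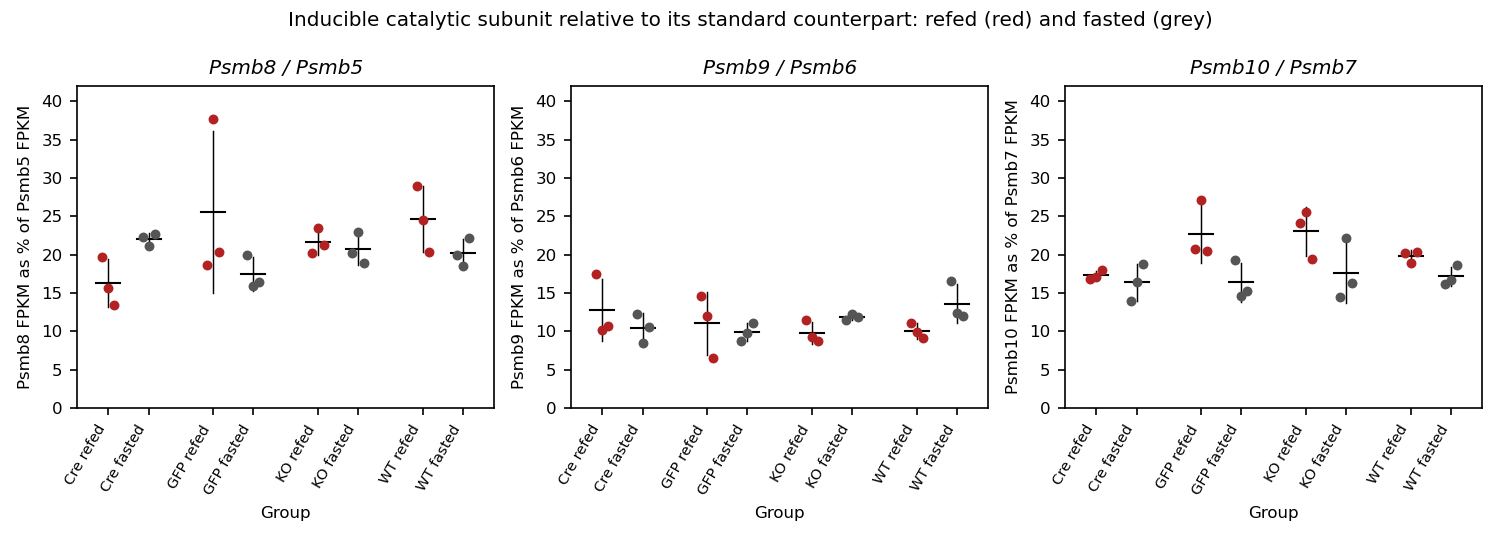
FPKM of each inducible catalytic gene as a percent of the FPKM of the standard gene it replaces, in every library (points) with group mean and SD (lines), refed groups in red left of fasted groups in grey; n = 3 per group. The ratios lie between 6.58% and 37.7%, with the highest point in a refed GFP liver for Psmb8 over Psmb5.

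Genes around the complex gave a mixed picture with refeeding, in the mean of 4 genotypes and among genes chosen with earlier results of these data known. The counts below stand beside 19.9% of all genes called higher and 10.4% called lower in this comparison. Of 5 activators and inhibitors, 2 were higher: the nuclear activator Psme3 at 0.21 ± 0.037 (limma adjusted p = 0.000347) and the interferon-inducible activator Psme2 at 0.13 ± 0.047 (adjusted p = 0.0471). Of 5 tested assembly factors, 1 was higher, Pomp, the maturation factor of the core, at 0.14 ± 0.050 (adjusted p = 0.0363). Of 6 receptors and deubiquitinases, 1 was higher, Shfm1, a small cap subunit, at 0.15 ± 0.057 (adjusted p = 0.0474). Under median-of-ratios scaling Psme3 kept its call, while Psme2, Pomp and Shfm1 did not, with adjusted p = 0.159, 0.144 and 0.162.

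Of 11 ubiquitin and shuttle genes, 3 were higher and 2 lower, 5 of 11 in all beside 30.3% of all genes called. The polyubiquitin gene Ubb fell, with a log2 change of -0.39 ± 0.051 (limma adjusted p = 1.66e-05), while Rps27a, which makes ubiquitin fused to a ribosomal protein, rose by 0.21 ± 0.053 (adjusted p = 0.00611). Ubb averaged 158 ± 25 FPKM in refed and 248 ± 18 FPKM in fasted Cre livers, 211 ± 14 FPKM in refed and 240 ± 16 FPKM in fasted GFP livers, 183 ± 18 FPKM in refed and 249 ± 10 FPKM in fasted KO livers, and 185 ± 14 FPKM in refed and 225 ± 14 FPKM in fasted WT livers (SD, n = 3 each). The shuttle Ubqln4 rose by 0.29 ± 0.050 and Zfand2a, an associate of the cap, by 0.22 ± 0.057, and Zfand5, which stimulates the proteasome, fell by 0.31 on the log2 scale. These 5 calls held under median-of-ratios scaling.

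Of 8 genes that process and activate Nfe2l1, 2 were higher (Syvn1 at 0.44 and Ufd1l at 0.11) and 1 was lower (Ngly1 at -0.12), near the shares of all genes called higher (19.9%) and lower (10.4%), and Nfe2l1 itself had 0.037 ± 0.036 (limma adjusted p = 0.456); Ufd1l lost its call under the scaling, with adjusted p = 0.138. Of 10 genes of MHC class I processing, which takes up peptides made by the immunoproteasome, 0 were higher and 1 was lower, Nlrc5, at -0.38 ± 0.084 (adjusted p = 0.00219). Tap1 and B2m had -0.17 ± 0.084 and -0.0089 ± 0.039 and were not called. In single pairs, called genes of these lists were Ubqln4 higher in GFP livers, Psme3, Sel1l and Ubqln4 higher and Ubb lower in Cre livers, and Psmg4 and Rps27a higher and Ubb lower in KO livers.

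The reading of single genes is limited by copies and neighbours. Transcripts of 12 of the 39 genes match another annotated transcript at 95% identity or more over at least 200 bases. Among the matches are processed pseudogenes of Psma3, Psma4, Psma5, Psmb3, Psmc1 and Psmd11. Exons of 11 of the 39 overlap those of another gene, and some genes are in both groups. For Psmb7, Psmb9, Psmd1 and Psmd13 the match, at 100% identity, was to an overlapping gene itself. Psmb10, Psmc5, Psmd5 and Psmd8 were in neither group.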

How the data were processed

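Liver RNA was sequenced in 24 libraries with a stranded mRNA kit, per the labels' protocols. The authors deposited FPKM per locus with its interval. HISAT2, Cufflinks, Cuffdiff and mm10 are named, without versions, per the submitters' processing notes, and the sources used here do not give the strand setting. The scale of the tests was log2(FPKM + 1), fitted by limma 3.58.1 in R 4.3.3 with a prior variance that follows mean expression and a coefficient for each group. The pseudocount of 1 understates changes of low genes. Pairs and interactions used the 12 libraries of a model (10452 acute and 10375 constitutive genes), and mean effects and model differences all 24 (10682 genes). Loci were kept at 1 FPKM or more in at least 3 fitted libraries, without 14 loci marked as failed. Two-sided p-values were adjusted by Benjamini and Hochberg over every gene kept and called at 0.05. The test was also run on simulated data with independent noise for each gene and library. Those data had no library-wide shift, uneven depth or correlation among genes, so that run cannot speak for such effects.

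Groups came from the sample titles. The genes and gene lists were chosen with earlier results of these data known. The text names called subunits, the catalytic pairs, the highest and lowest genes of each role, genes that failed the filter, the 3 largest interactions and model differences, and called genes of related lists; 1 listed gene is not reported here. Psmd11, Psmb1, Psma6, Apoa1, Tap1, B2m and Nfe2l1 were added after their values were seen. Depth came from the deposited intervals: between 64.1% and 66.8% of low implied fragment numbers were within 0.05 of whole, too few to recover counts. Promoter windows are from RefSeq (GRCm38.p6), overlaps and copies from GENCODE M21. Alternatives were median-of-ratios scaling, a pseudocount of 0.1, no filter, a replicate block, the 8 shallower acute libraries, fits of only the 2 groups compared, and each library left out in turn.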

Additional observations from a re-analysis of the deposited data

How the results depend on the processing

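The decrease of Psmd9 in knockout livers was called in all 5 other settings and in all 24 fits that left out 1 library, with log2 changes of -0.29 to -0.26. The count for refeeding in GFP livers, 2, became 1 with median-of-ratios scaling, 1 with the replicate block, 1 with only the 2 groups compared and 0 with the 8 shallower acute libraries, and 1 to 2 when a library was left out. That for refeeding in KO livers, 0, became 2 with median-of-ratios scaling and 2 with the replicate block, both times Psmc6 and Psmd11, lower, and 0 to 1 when a library was left out (Psmb10, without KO refed library 3). That for Cre against GFP in refed livers, 0, ranged from 0 to 1 when a library was left out (Psmb5, without GFP refed library 1). The 6 calls of the mean refeeding effect became 4 to 6 over the 5 other settings. For Psmb9 in Cre against GFP refed livers, the log2 change of 0.24 turned to -0.19 with the 8 shallower acute libraries. It ran from -0.0083 (without GFP refed library 3) to 0.41 (without GFP refed library 1) when a library was left out. The causes of these changes were not tested. Deviations of libraries with the same number had a median r of -0.018 in acute pairs, against -0.0148 for libraries with different numbers. In constitutive pairs the median r was 0.0862 (-0.156 to 0.281) with the same number, against -0.0417 (-0.362 to 0.249) with different numbers. Same-number libraries were thus no closer in the acute model and somewhat closer in the constitutive one, with overlapping ranges. The replicate block is given as a check alone.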

Other observations

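The subunits moved together from library to library. After removal of the group means, the 666 pairs of tested subunit genes had a median correlation of 0.330 over the 24 libraries, against 0.0776 for pairs of a subunit with another gene. Pairs within the 20S core had a median of 0.402 and pairs within the 19S cap 0.366, and the 3 pairs of inducible catalytic genes 0.519. With median-of-ratios scaling the medians were 0.220 for subunit pairs and 0.0035 for subunits with other genes. All pairs share the same libraries, their depth and their scaling, so these values are a description without a test. Of the 37 subunits 32 averaged 20 FPKM or more, against 2475 of all 10682 genes kept. Low genes vary more from counting, and no reference of matched level was used. By subunit, the median correlation with the core and cap genes was largest for Psmd7 at 0.513 and Psma3 at 0.503 and smallest for Psmb10 at 0.141 and Psmd5 at 0.151.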
